A study of Rattus norvegicus with 3 samples.

Results

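The differentially methylated regions described here are those of 2 windows of the rat genome, each of 1 Mb, one around Sec23a on chromosome 6 (79170000 to 80170000) and one around Sec23b on chromosome 3 (132640000 to 133640000), on assembly rn4. The windows were chosen from the data themselves, each around a region that scored high in MLP vs. C and that the study annotates to the gene. Every region of the 3 deposited lists that touched a window was taken, which gave 36 regions for Sec23a and 33 for Sec23b, 69 of the 95306 regions in the lists. MLP vs. C gave 13 of these at Sec23a and 15 at Sec23b, MLP vs. MLP-F gave 12 at each, and MLP-F vs. C gave 11 and 6.

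Liver DNA came from male Wistar rats 1 day after birth, and the dams ate during pregnancy either a normal diet (group C), a diet low in protein (MLP) or low protein+folate (MLP-F). DNA fragments that bind a methyl-CpG binding domain (MBD) were captured and sequenced as 1 pooled library per group, from 6 animals by the labels, while the paper's text gives a different number and a single litter per diet. Each list gives the regions with more captured reads in the first library than in the second, and the score of a region is 10 times the −log10 of its p from the peak caller MACS. The lists hold no reads, so the depth behind each score is unknown from them. By the study's own table MLP was the deepest library and C the shallowest, and depth moves the scores. With 1 library per diet there is no replicate check, so the diets were not tested and scores describe regions within a list. With a single litter per diet, a difference between diets cannot be told apart from a difference between litters. The number of regions is 35998 in MLP vs. C, 33730 in MLP vs. MLP-F and 25578 in MLP-F vs. C, and the lowest score is 50 in each, the caller's p cut-off. They carry no FDR. Whole liver was used, and a change in captured methylation within a cell type cannot be told apart from a change in the mixture of cells.

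Sec23a and Sec23b are the paralogous inner coat proteins of COPII, the coat that buds vesicles from the endoplasmic reticulum towards the Golgi. The GTPase Sar1 recruits Sec23 bound to its partner Sec24, which picks the cargo. Sec23 then activates the GTPase, and Sec13 with Sec31 forms the outer cage. Hepatocytes depend on this route to export albumin, clotting factors and lipoproteins. Inherited loss of SEC23A in humans gives a craniofacial disorder, and loss of SEC23B gives a dyserythropoietic anaemia, a disease of red cell formation.

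At both paralogs the called region was in all 3 lists. At the caller's p cut-off it was thus called higher in MLP than in either other group. At that cut-off, which carries no FDR, it was also called higher in MLP-F than in C. By these calls both loci stood in the order MLP, MLP-F, C. Library depth by the study's own table fell in the same order, so diet and depth cannot be told apart here. The paper itself reports no differentially methylated regions between MLP-F and C. The Sec23a region lies on chromosome 6 from 79667358 to 79668973 (1616 bp) and is intronic by the study's annotation. It scored 1381 in MLP vs. C, 458 in MLP vs. MLP-F and 66.4 in MLP-F vs. C. The Sec23b region lies on chromosome 3 from 133138572 to 133140689 (2118 bp), also intronic. It scored 1676, 689 and 162 in the same order. With a score of at least 100 required, the Sec23a region was no longer in MLP-F vs. C, while that of Sec23b was. The highest score at each gene was that of MLP vs. C and the lowest that of MLP-F vs. C. Intron and exon were not checked against gene models of rn4.

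Regions of MLP vs. C that overlap regions of both other lists, by at least 1 bp, were uncommon: 399 of 35998, or 1.11%. Among regions of MLP vs. C with a score of 1000 or more, to which both called regions belong, 22 of 67 (32.8%) did. Both called regions were chosen with these scores known, so their place in the 3 lists is a description.

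**Figure D1:**
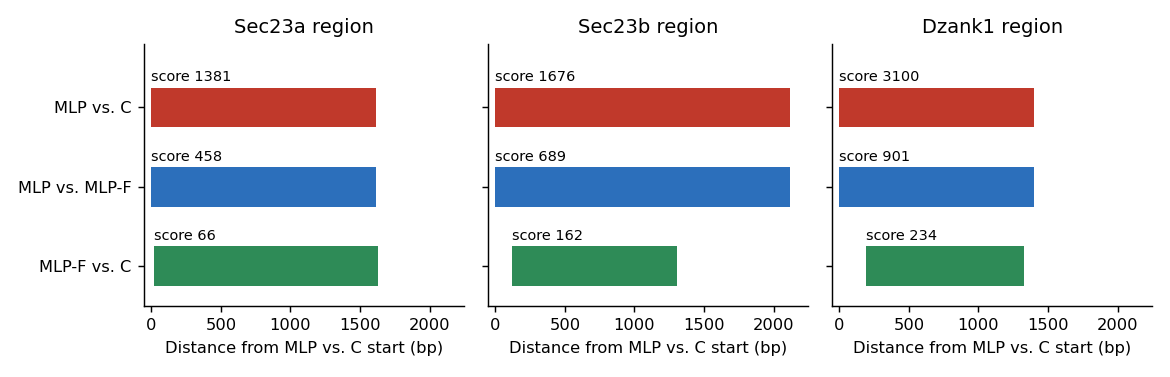
Extent of the Sec23a, Sec23b and Dzank1 regions in each list, as distance in bp from the start of the MLP vs. C region, with the score above each bar. The red and blue bars, both with MLP as the first library, have the same ends at each gene, and the MLP-F vs. C bar covers 98.8% of the MLP vs. C region at Sec23a, 55.9% at Sec23b and 81.7% at Dzank1.

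The called regions of the paralogs differed in how far the MLP-F vs. C region reached. At Sec23a the MLP-F vs. C region ran from 79667377 to 79668985, beginning 19 bp and ending 12 bp further along the chromosome than the MLP vs. C region, of which it covered 98.8%. At Sec23b it ran from 133138694 to 133139878, a length of 1185 bp that covered 55.9%. Of the 8144 MLP vs. C regions in the whole series that overlap a MLP-F vs. C region, 0 had the same ends in both. Unequal ends are thus not particular to Sec23a or Sec23b. In the comparisons that have MLP as the first library, the start and the end were the same at both genes. That holds for every one of the 14194 regions in the whole series that overlap between these lists (100%), so the shared ends are not particular to Sec23a or Sec23b. In these lists the ends thus went with the first library of a comparison and not with the second. The covered shares therefore do not give the extent of a difference between MLP-F and C.

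By place in the list, the Sec23b region stood above the Sec23a region in all 3 lists. In MLP vs. C they were at places 30 and 42. In MLP vs. MLP-F, Sec23b was at place 174 and Sec23a at place 466. In MLP-F vs. C, Sec23b was at place 1106, within the top 4.32% of the list, and Sec23a at place 14370, below the middle of the list (56.2% of regions scored as high or higher). The score of Sec23b was 1.21 times that of Sec23a in MLP vs. C, 1.51 times in MLP vs. MLP-F and 2.44 times in MLP-F vs. C. Against the median of each list, Sec23a scored 17.8, 5.59 and 0.957 times the median, and Sec23b 21.7, 8.43 and 2.33 times. These differences between the paralogs were not tested, since each rests on 1 library per diet. Depth moves the scores, so these ratios are not relative sizes of methylation differences. The Sec23a score in MLP-F vs. C, 66.4, was also near the lowest score of that list, 50.

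**Figure D2:**
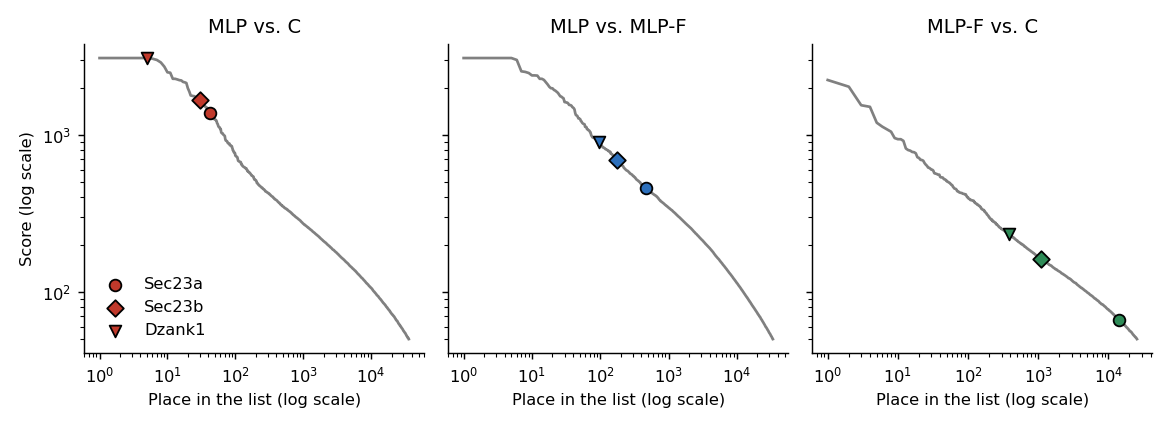
Scores by place, with log axes, in a panel for each list; grey lines are all regions and the markers are Sec23a, Sec23b and Dzank1. Sec23a is at places 42, 466 and 14370 of the lists and Sec23b at places 30, 174 and 1106; the lists differ in length and in the depth of their libraries, so places are read within a list.

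The scores of the called regions were also set against those of other regions across the lists. The lists rest on different pairs of libraries and depth moves the scores, so a ratio is not the relative size of a methylation difference. Over the 14194 regions listed in both MLP comparisons, the median ratio of the MLP vs. MLP-F score to the MLP vs. C score was 1.0 (quartiles 0.727 and 1.5). The ratio was 0.331 for Sec23a and 0.411 for Sec23b, under the lower quartile. Both regions were chosen for a high MLP vs. C score, which is the divisor, so a low ratio is fixed in part by the choice. Among the 63 of these regions that scored 1000 or more in MLP vs. C, the median was 0.837 and the lower quartile 0.433. For the MLP-F vs. C score over the MLP vs. C score, 8144 overlapping regions had a median of 0.892, against 0.0481 for Sec23a and 0.0966 for Sec23b. The 26 regions with 1000 or more in MLP vs. C had a median of 0.0702 here, with quartiles of 0.0486 and 0.123, so among regions of like score Sec23a lay just under the lower quartile and Sec23b between the quartiles.

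The highest score of either window was not at a Sec23 gene. In the Sec23b window the region that the study annotates to an intron of RGD1311344, now named Dzank1, runs from 133040310 to 133041705 (1396 bp), and 96.9 kb separate its end from the start of the Sec23b region. It scored 3100 in MLP vs. C, the ceiling of that list, which 5 regions share. Its scores were 901 in MLP vs. MLP-F and 234 in MLP-F vs. C, so it stood above both Sec23 regions in each list. The order of diets was the same as at the Sec23 regions, and it is also the order of library depth. Of MLP vs. C regions, 67 (0.186%) reach 1000, and 2 of them are in this window and 1 in that of Sec23a. In the order of RefSeq genes on the later assembly GRCr8, Dzank1, Polr3f, a subunit of RNA polymerase III, and Rbbp9, a serine hydrolase, precede Sec23b, and Smim26 and Dtd1, a deacylase of mischarged tRNA, follow it.

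Directly beside the Sec23b region, with 220 bp between them, a second MLP vs. C region ran from 133137004 to 133138351 with a score of 150. It was in neither other list. No MLP vs. C region stood as close to the Sec23a region, where the nearest was 58.3 kb above (79727256 to 79728582, score 53.0) and the next 96.9 kb below (79569527 to 79570474, score 117). Within 100 kb of the start of the called region, counting it, there were 3 MLP vs. C regions at Sec23a and 4 at Sec23b.

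**Figure D3:**
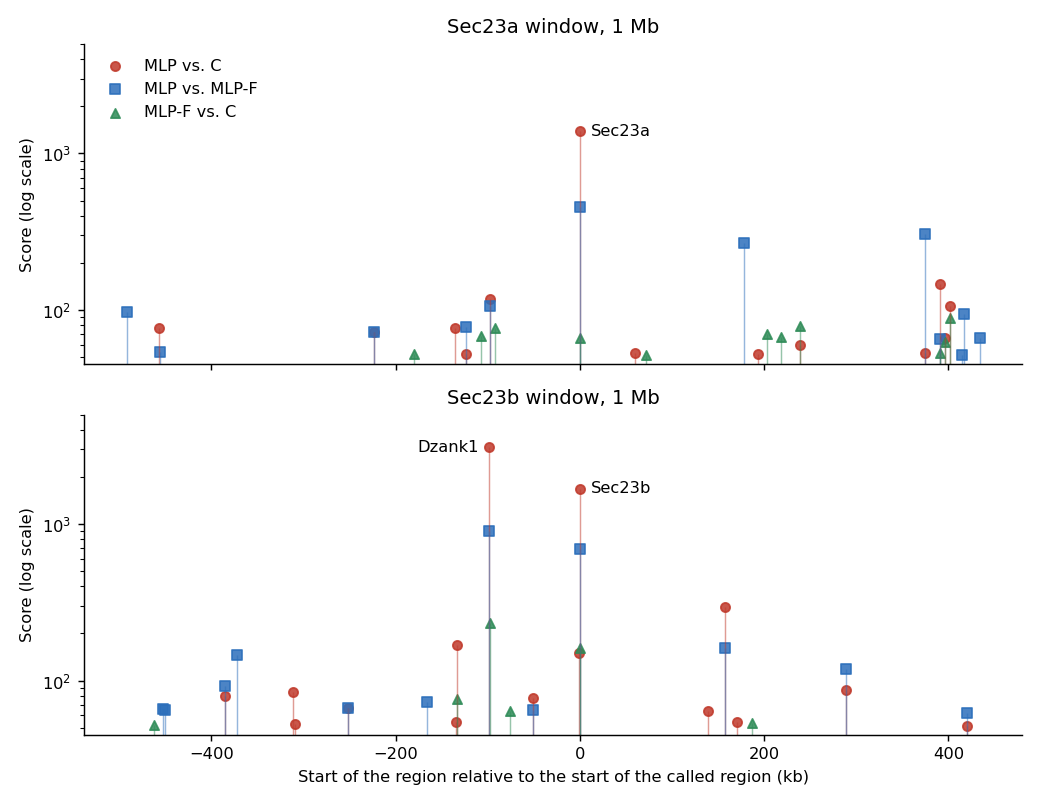
Score on a log scale of each region in the Sec23a and Sec23b windows against the distance in kb of its start from the start of the called region; circles are MLP vs. C, squares MLP vs. MLP-F and triangles MLP-F vs. C. Sec23a stands alone above 1000 in its window, with the next MLP vs. C score at 146, and the Sec23b window holds Dzank1 at 3100 and Sec23b at 1676.

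With the called region counted, MLP vs. C scores in the Sec23a window were near those of the whole list. The other 12 regions scored between 52.0 and 146, and the median of all 13 was 72.5, beside 77.4 for the whole list. Of the 13, 4 scored 100 or more (30.8%, 95% Wilson interval 12.7 to 57.6%), and 31.1% of the whole list did. The second highest was 391 kb above the Sec23a region, from 80058168 to 80059196, and it was the other region of this window found in all 3 lists, with scores of 146, 65.7 and 53.4. Close above it lay regions at 80063177 to 80063599 and 80069293 to 80069762, with MLP vs. C scores of 66.0 and 107. These overlapped regions of MLP-F vs. C with scores of 62.1 and 89.1 and none of MLP vs. MLP-F. The 3 neighbours were thus each called higher in MLP and in MLP-F than in C.

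The region at 80042640 to 80043646 scored 304 in MLP vs. MLP-F and 53.4 in MLP vs. C, and it was absent from MLP-F vs. C. Another at 79845104 to 79846242 scored 267 in MLP vs. MLP-F and was in neither other list. At the first position the score against MLP-F was the higher and at the other the only one, while at the Sec23a region the score against C was the highest. At 79443494 to 79444287 both MLP comparisons gave the same score, 72.5. In the order of GRCr8, Sec23a is followed by Gemin2, an assembly factor of spliceosomal particles, Trappc6b, a subunit of the TRAPP tether of Golgi-bound vesicles, Pnn and Mia2, which exports cargo at endoplasmic reticulum exit sites, and Foxa1, a pioneer transcription factor of liver, lies further off on the other side. Which of these regions lies in which gene was not determined on rn4.

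In the Sec23b window, the other 13 MLP vs. C regions scored between 51.3 and 294, and the median of all 15 was 79.7. The highest of them, from 133295528 to 133295976, scored 294 against C and 161 against MLP-F, with no region of MLP-F vs. C over it. Next came the region from 133005943 to 133006425, with 170 against C. It overlapped one of MLP-F vs. C (score 75.9) and was not in MLP vs. MLP-F. In MLP vs. MLP-F alone, the highest score was 147 at 132767044 to 132767578, and in MLP-F vs. C alone it was 64.1 at 133062503 to 133063030. At 132886522 to 132887040 both MLP comparisons again gave 1 score, 66.5. Regions with the same ends and the same score in both MLP lists were 773 of 14194 in the whole series (5.45%), and 1 of 6 and 1 of 8 in the Sec23a and Sec23b windows.

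In MLP-F vs. C, of the 11 regions in the Sec23a window, 0 scored 100 or more, the highest being 89.1, whereas 2 of the 6 in the Sec23b window did, those at Dzank1 and Sec23b. In the whole list 19.1% of regions reach 100. The 95% Wilson intervals were 0 to 25.9% for Sec23a and 9.68 to 70.0% for Sec23b, which overlap and cover counting error only. In MLP vs. MLP-F the windows were alike in number, with 4 and 5 of 12 regions at 100 or more (36.8% of the whole list), and their highest scores were 458 at Sec23a and 901 at Dzank1.

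Of the MLP vs. C regions, 6 of 13 in the Sec23a window (46.2%, 95% Wilson interval 23.2 to 70.9%) and 8 of 15 in the Sec23b window (53.3%, 30.1 to 75.2%) overlapped a region of MLP vs. MLP-F, beside 39.4% of the whole list. A region of MLP-F vs. C was overlapped by 5 of 13 (38.5%, 17.7 to 64.5%) and 3 of 15 (20.0%, 7.05 to 45.2%), beside 22.6%. Each interval contains the share of the whole list, and the intervals of the windows overlap. The 2 lists of each pair share a library, and regions of a window are not replicates of a diet. Among the regions shared by both MLP comparisons, the score was higher against MLP-F than against C at 2 of 6 in the Sec23a window and 3 of 8 in the Sec23b window, and at 48.8% in the whole series.

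Merging the regions of the 3 lists gave 25 intervals in the Sec23a window and 22 in the Sec23b window. Intervals found in all 3 lists numbered 2 in each, 8.0% and 9.09%, and 0.553% of 70885 intervals on the placed chromosomes. They were the Sec23a region and its neighbour 391 kb above, and the Dzank1 and Sec23b regions. In each window the called region by which it was chosen is among these few intervals, so nothing is read from the higher share than on the placed chromosomes. Intervals in MLP vs. C alone were 4 (16.0%) at Sec23a and 6 (27.3%) at Sec23b, and those in both MLP comparisons and not in MLP-F vs. C were 4 (16.0%) and 6 (27.3%). Those in MLP-F vs. C alone were 6 (24.0%) and 3 (13.6%), and those in MLP vs. MLP-F alone 6 (24.0%) and 4 (18.2%). On the placed chromosomes these patterns made up 19.3%, 19.0%, 23.7% and 26.9%. No test of the difference between the windows was made.

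**Figure D4:**
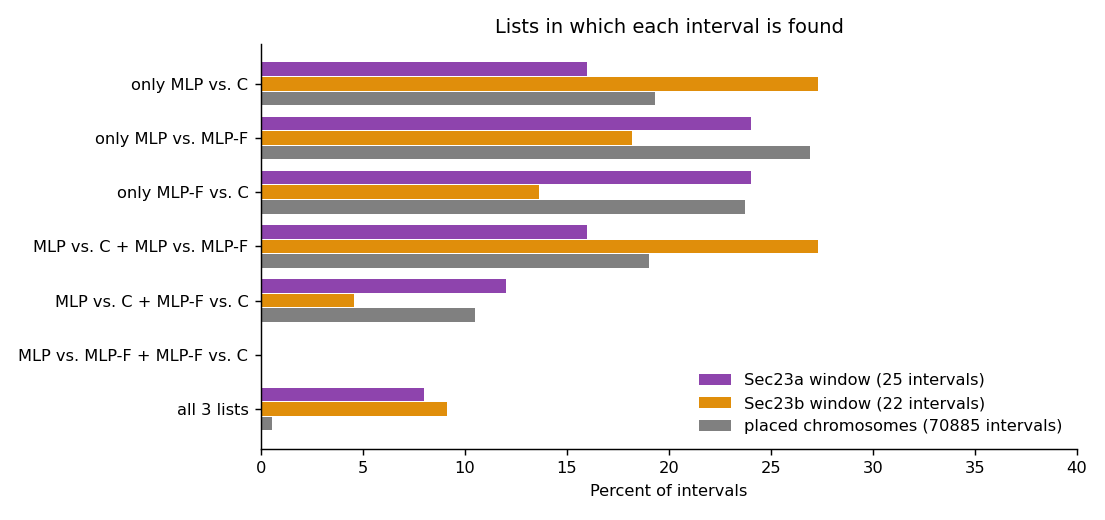
Percent of merged intervals found in each combination of lists, for the Sec23a window, the Sec23b window and the placed chromosomes. For MLP vs. MLP-F alone both windows lie below the genome share (24.0% and 18.2% against 26.9%), and for the other single lists they lie on either side of it. Intervals in all 3 lists are 8.0% and 9.09% in the windows and 0.553% on the placed chromosomes. Those of the windows include the called regions by which the windows were chosen.

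Neither window was crowded. Over 2710 windows of 1 Mb laid end to end on the placed chromosomes, the median number of MLP vs. C regions was 11 (quartiles 6 and 18), and Sec23a had 13 and Sec23b 15. For MLP vs. MLP-F the median was 10 (6 and 15), with 12 in each window, and for MLP-F vs. C it was 8 (3 and 13), with 11 and 6. All 6 counts lay between the quartiles. The regions of MLP vs. C covered 1.08% of the bases of the Sec23a window and 1.22% of those of the Sec23b window, and the called region alone made up 15.0% and 17.3% of the covered bases. Both called regions were long, since 97.8% of MLP vs. C regions were as short as that of Sec23a or shorter, and 99.4% for Sec23b, where the median length was 674 bp.

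**Figure D5:**
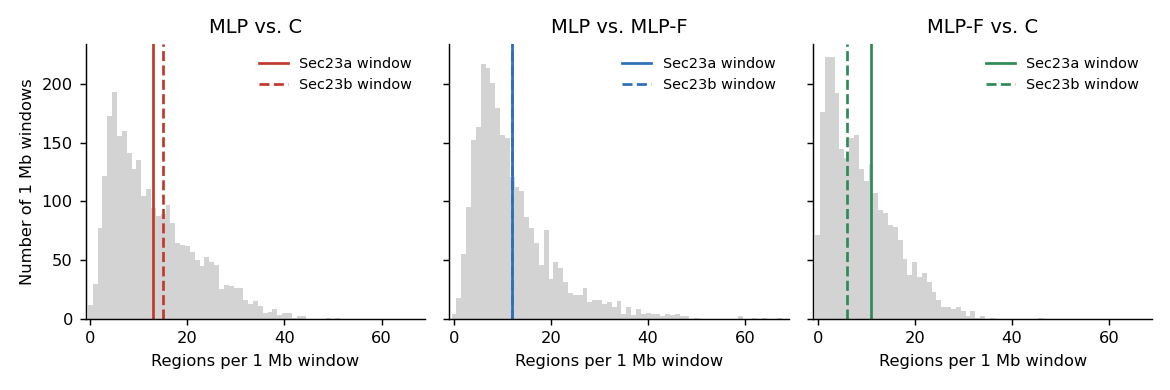
Number of 1 Mb windows of the placed chromosomes (grey bars) by the number of regions they hold, in a panel for each list; vertical lines mark the Sec23a (solid) and Sec23b (dashed) windows. The windows hold 13 and 15, 12 and 12, and 11 and 6 regions, near the middle of each distribution.

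At the edges of the windows, the nearest MLP vs. C regions were 40.2 kb inside (score 76.9) and 71.0 kb outside (score 222) at the lower edge of the Sec23a window, and 100.2 kb inside (107) and 51.7 kb outside (66.6) at the upper. For Sec23b they were 113.8 kb inside (79.7) and 25.6 kb outside (76.2) at the lower edge, and 80.5 kb inside (51.3) and 362.9 kb outside (98.9) at the upper.

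Other genes of vesicle transport between the endoplasmic reticulum and the Golgi were looked up in the study's annotation, which names the gene nearest to each region its authors selected. The 36 genes were the COPII coat and its GTPases (Sec23a, Sec23b, Sec24a, Sec24b, Sec24c, Sec24d, Sec13, Sec31a, Sec31b, Sar1a, Sar1b, Preb), factors of exit sites (Sec16a, Sec16b, Mia2, Mia3, Tfg, Klhl12), cargo receptors (Lman1, Lman2, Mcfd2, Surf4, Tmed2, Tmed10, Ergic1, Ergic2, Ergic3), and SNAREs and tethers (Bet1, Sec22b, Stx5, Gosr2, Uso1, Ykt6, Trappc1, Trappc3, Trappc10). Named were 6 of them (16.7%), beside 674 of 23154 RefSeq protein-coding genes (2.91%). The list was written after the annotated names had been seen, so nothing is read from this share, and Tmed6, which is also named, is outside it. Besides Sec23a and Sec23b the 6 were Ergic1, Tmed10, Bet1 and Trappc10, and their MLP vs. C scores were between 126 and 130, at places between 6431 and 6857. Trappc10, a subunit of a Golgi tether (chromosome 20, 10817493 to 10818446, intronic), scored 129 against C and 200 against MLP-F. Bet1, a SNARE of vesicle fusion (chromosome 4, 29070183 to 29071371, upstream), scored 128 and 102. Ergic1, a membrane protein of the intermediate compartment (chromosome 10, 16829263 to 16829793, intronic), scored 126 against C and overlapped a region of MLP-F vs. C with 53.4. Tmed10, a cargo receptor of the p24 family (chromosome 6, 109467857 to 109468280, upstream), scored 130 and overlapped one with 89.3. The Sec23 regions were chosen for high scores, and these 4 were not set against them. The annotation names genes only for regions the authors selected, so the 30 genes not named may have regions in the lists.

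The lists leave some measures of the Sec23 regions unknown. They hold no region that was lower in the first library, and where a list has no region the libraries may still differ. The study's annotation names tandem repeats for both called regions and for Dzank1, and the part of repeats, where reads can align to more than 1 place, was not tested.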

How the data were processed

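The files hold MBD-seq of 3 pooled liver libraries, C, MLP and MLP-F, mapped to diets by their labels. Per the labels and the study's methods, CASAVA and Bowtie were used on rn4, and MACS compared each pair of libraries. Their versions were not given in the sources. In the lists that the authors deposited, a region has coordinates and a score of 10 times the −log10 of the MACS p, without reads, fold or FDR. Depth and its precision per library are therefore not in these files.

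Starts were converted to 1-based positions. Regions touching either 1 Mb window were taken, with places by score (ties share the last place), overlap of at least 1 bp, and 95% Wilson intervals for shares. Intervals cover counting error only. No test was made, with 1 library per group. Overlap counting was checked on made-up intervals with known answers. Background windows of 1 Mb ran from the start of each placed chromosome to the last whole window in the lists. Gene names came from the study's annotation by position and, for Dzank1 and gene order, from RefSeq GRCr8, with no coordinate carried over. Sequence of rn4 was not used here.

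Named were Sec23a and Sec23b, annotated regions of the windows, regions with scores of 1000 or more, the highest of each list, the regions at the window edges and annotated COPII genes. Other regions in the text were chosen after their values were seen. Members and lists were chosen with earlier results of these data known. Alternatives were a score of at least 100, windows of 500 kb and 2 Mb, covered bases, a reciprocal overlap of 50% and a distance of 1 kb. Python 3.11.15, numpy 2.4.6, pandas 2.3.3, SciPy 1.17.1 and matplotlib 3.10.9 were used.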

Additional observations from a re-analysis of the deposited data

How the results depend on the processing

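Over 17 results and 58 alternatives, 48 values stayed within 1.5 times the count, within the Wilson interval of the share or in the same list, and 10 did not. At a score of at least 100, the regions per Mb were 4 in each MLP comparison and 0 in MLP-F vs. C in the Sec23a window, and 5, 5 and 2 in the Sec23b window, since fewer regions pass. At that score the Sec23a region was no longer in MLP-F vs. C (present in 0 of 1). The share of MLP vs. C regions of its window overlapping MLP-F vs. C was 0% (0 of 4). The 2 MLP-F vs. C regions left in the windows (100%) both lay in the Sec23b window, at Dzank1 and at Sec23b. So the order of diets at Sec23a rests on an MLP-F vs. C score of 66.4, and that at Sec23b did not change. In windows of 500 kb, MLP-F vs. C had 10 regions per Mb at Sec23b, and the cause was not tested. Both called regions were in all 3 lists under a reciprocal overlap of 50% and within 1 kb. No paired analysis was possible because each group has 1 pooled library and no test was made.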
